A study of Mus musculus with 8 samples.

Results

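The Slc25 genes encode membrane carriers that move nucleotides, amino acids, carboxylates, phosphate and cofactors between the cytosol and the inside of organelles. They were found on Illumina MouseRef-8 BeadChips as every probe whose platform gene symbol begins with Slc25a and a number, which gave 57 probes for 39 genes among the 25697 probes of the array. A probe was compared between groups when its detection p was under 0.05 on at least 4 of the 8 arrays. This left 32 Slc25 probes for 24 genes, among 11938 compared probes in all, and 24 of the 8528 genes with a compared probe. The methanol group was brain RNA of mice given methanol at a dose of 120 mg/kg in a volume of 350 µl, and the control group was brain RNA of mice given 350 µl of normal saline. There were 4 arrays in each group, taken 2 h after treatment, and the labels give male sex for all mice. The methods describe whole brain homogenates of male BALB/c mice, an inbred strain, and exposure by inhalation from soaked cotton wool, whereas the labels name a dose and no route. The methods also give a shorter time before the brains were taken than the 2 h of the labels, and more mice per group than there are arrays. The labels do not say whether each array held the RNA of a single mouse. In whole brain, fewer cells of a type and less RNA per cell cannot be told apart.

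Most Slc25 carriers sit in the inner mitochondrial membrane, which small charged metabolites do not cross unaided. The carriers are built from repeated membrane-spanning units, and most exchange a metabolite for another or move it together with protons. Neurons and astrocytes use them to bring ADP and phosphate in for ATP synthesis, to pass reducing equivalents through the aspartate and malate exchangers, and to burn or make glutamate. A few members, such as Slc25a17, lie in other membranes.

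Over the compared probes, methanol arrays correlated with each other at 0.983 to 0.988, control arrays at 0.981 to 0.989, and arrays of different groups at 0.973 to 0.984. Each methanol array detected 11291 to 12366 probes and each control array 11855 to 12199. Of the cell type lists, none of the 3 compared neuron genes or the 8 astrocyte genes passed the test on its brightest probe. Nor did any of the 5 oligodendrocyte genes or the 3 endothelial genes. Of 3 microglia genes 1 was lower, P2ry12 (log2 change -0.35, limma adjusted p = 0.036), where 2.49% of all compared probes were called lower. The brightest probes of the others, Cx3cr1 and Aif1, changed by -0.31 (adjusted p = 0.18) and 0.02 (adjusted p = 0.97). P2ry12 is the brightest of these 3 genes and adds most to their sum. Their summed log2 level was from 10.05 to 10.46 on methanol arrays and from 10.48 to 10.66 on control arrays. Of 11 compared oligodendrocyte probes 1 was higher, where 3.12% of all compared probes were. It was a dimmer probe of the myelin gene Mobp (log2 change 0.71, limma adjusted p = 0.044). The brightest probe of Mbp changed by 0.41 (adjusted p = 0.097). Those of Mobp, Mag, Mog and Cnp changed by 0.20, 0.10, 0.04 and -0.16. Red cell genes were lower for 4 of 5. Their summed log2 levels were from 12.37 to 12.66 on methanol arrays and from 14.07 to 14.46 on control arrays. All 5 compared genes from a list of genes that differ between laboratory strains were lower. The summed log2 levels of this list were from 11.61 to 11.94 on methanol arrays and from 12.29 to 12.47 on control arrays. Both lists were chosen with earlier results of these data known. The study's own list of lower genes holds members of each, such as Hba-a1 and H2-K1. These counts are therefore not taken as independent evidence. The compared H2-K1 probe was detected on 0 methanol and 4 control arrays. Both probes of Xist, the RNA of the inactive X chromosome, were detected, with log2 levels from 6.96 to 8.99, which goes against the male label. The part of the red cell and strain-list differences in the results below was not tested, nor was the strain of the mice.

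Of the 32 compared Slc25 probes, 2 were higher in the methanol group, Slc25a18 and Slc25a17, 1 probe, of Slc25a3, was lower, and the remaining 29 missed the threshold (limma, Benjamini-Hochberg adjusted p under 0.05 over the 11938 probes). Over all compared probes 5.60% were called, 3.12% as higher and 2.49% as lower, and 9.38% of the Slc25 probes were called, a share that rests on 3 probes. The 4 methanol and 4 control arrays did not overlap for 4 Slc25 probes, or 12.5%, against 12.4% of all compared probes. The median log2 change of the Slc25 probes was 0.03, with 19 positive and 13 negative changes, and the median over all compared probes was -0.0021. Slc25a18 had the largest change of the compared Slc25 probes.

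**Figure D1:**
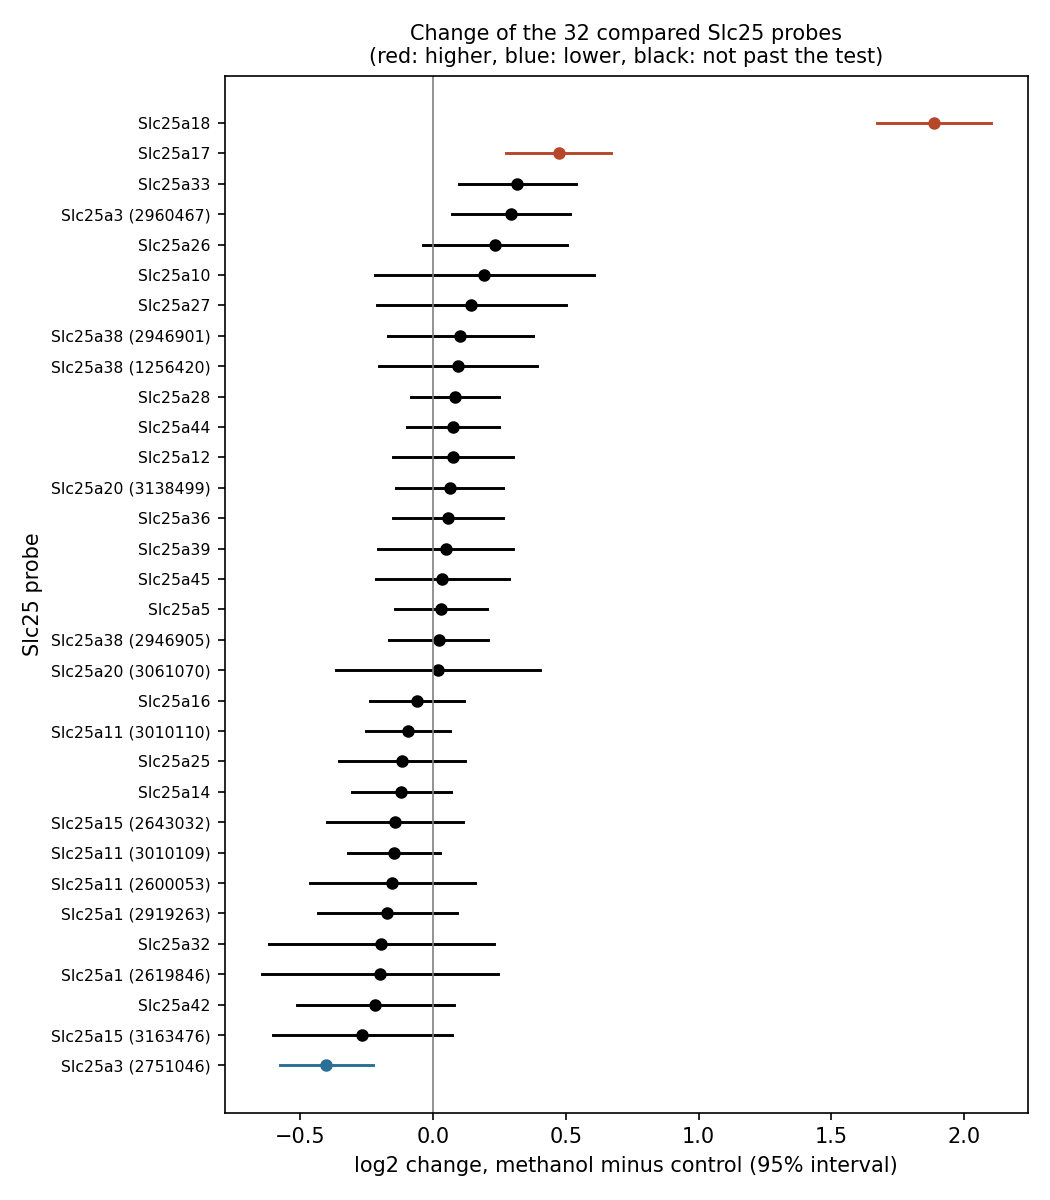
Log2 change, methanol minus control, of each of the 32 compared Slc25 probes with its 95% interval from limma, ordered by size, with the last digits of the probe name where a gene has several. Slc25a18 lies at 1.89, and the 29 probes that did not pass the test lie between -0.27 and 0.32.

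The largest difference was that of Slc25a18 (probe ILMN_2704027), on chromosome 6, which encodes a mitochondrial carrier that moves glutamate together with protons. Its log2 intensities were 10.75, 11.25, 11.22 and 11.05 on the methanol arrays, against 9.13, 9.20, 9.18 and 9.23 on the control arrays. Every methanol array lay above every control array, with a gap of 1.52 log2 units between the lowest methanol and the highest control array. The means were 11.07 ± 0.23 for methanol and 9.18 ± 0.045 for control (SD, n = 4 each), a log2 change of 1.89 (SE 0.10, 95% interval from 1.67 to 2.10), or 3.70-fold higher in the methanol group. The adjusted p from limma was 2.9e-08, and the exact permutation test gave the smallest p that 4 against 4 arrays allow, 0.0286, two-sided. The intensities as normalized by the authors, without background correction, were 1876, 2591, 2532 and 2276 on the methanol arrays and 707, 737, 729 and 749.7 on the control arrays. Among all 11938 compared probes, Slc25a18 ranked 19 by the absolute size of its change, 13 among increases and 7 by its p. The study's own list of genes higher after exposure, which also drew on arrays not analysed here, holds this gene. The methanol arrays behind that list may be the present ones, so that its direction here is not taken as independent evidence.

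Slc25a18 transcripts are known from astrocytes in the mouse brain, and none of the compared astrocyte list passed the test. Over the 8 compared astrocyte genes the summed log2 level was from 14.43 to 14.54 on methanol arrays and from 14.33 to 14.48 on control arrays, with a median log2 change of 0.05. The calcium-binding protein gene S100b had the largest change of the list, 0.53 (limma adjusted p = 0.081), followed by 0.25 for the folate enzyme gene Aldh1l1 (adjusted p = 0.21), 0.21 for the aldolase gene Aldoc (adjusted p = 0.079) and -0.20 for the water channel gene Aqp4 (adjusted p = 0.31). Gfap, of intermediate filaments, changed by -0.11, the glutamate uptake transporters Slc1a2 and Slc1a3 by 0.07 and 0.04, and the gap junction gene Gja1 by 0.01. Dimmer compared probes changed by 0.13 and -0.04 for Aldh1l1 and by 0.02 for Slc1a2. A dim Slc1a2 probe, detected on 3 methanol arrays and 0 control arrays, was not compared. Glul, the glutamine synthetase of astrocytes, which was not on the marker list, was higher in the methanol group by 0.63 (adjusted p = 0.0041).

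**Figure D2:**
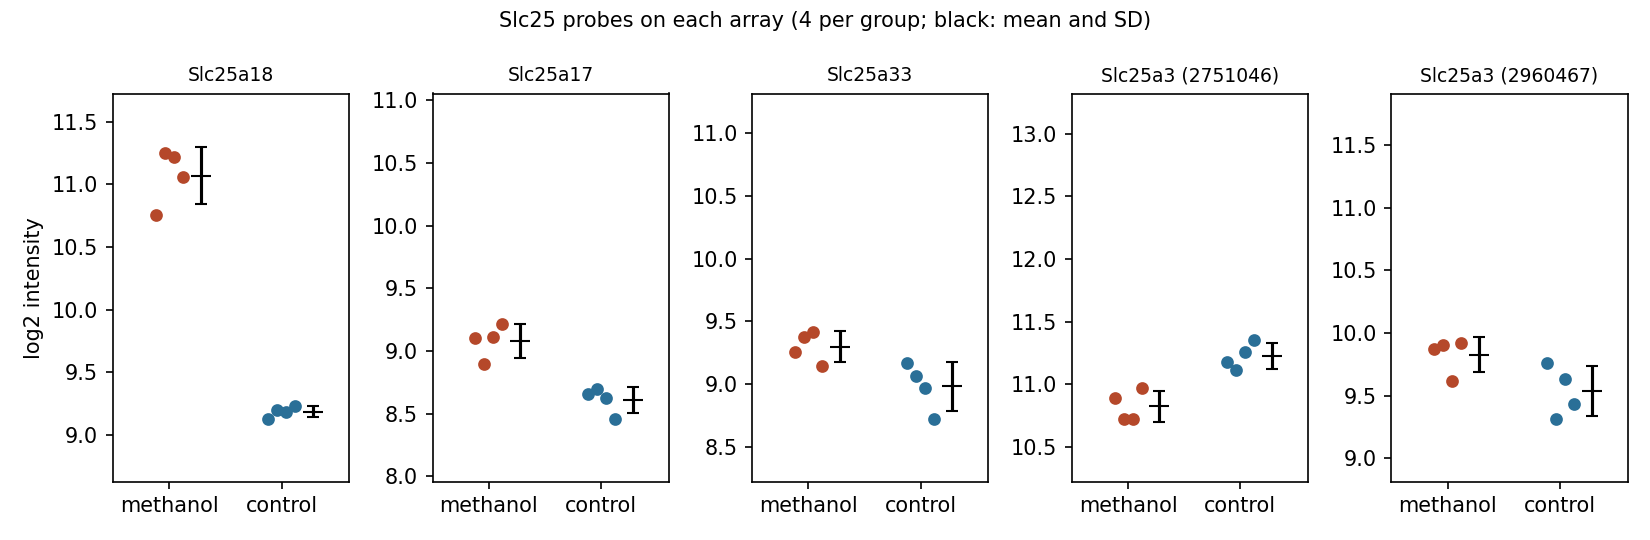
Log2 intensity of 5 Slc25 probes on each array, methanol on the left and control on the right of each panel, with the mean and SD of 4 arrays in black. All panels span the same number of log2 units, so that the gap of Slc25a18, 11.07 against 9.18, can be read beside the smaller gaps of the others.

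The promoter of Slc25a18 is shown because this gene carried the largest change of the family, and those of Slc25a17 and Slc25a3 because they are the other genes with a called probe. Each is the stretch of 250 bases before a start site that RefSeq gives in build GRCm38.p6, at chr6:120773518-120773767 on the plus strand, chr15:81360766-81361015 on the minus strand and chr10:91123968-91124217 on the minus strand, read 5′ to 3′ along the gene. Capitals mark matches to 5 motifs searched on both strands, the GC box (GGGCGG), the CCAAT box (CCAAT), the TATA box (TATAAA), the half-site of estrogen-related receptors (AAGGTCA) and the palindromic NRF1 site, and no matches overlapped.
Slc25a18: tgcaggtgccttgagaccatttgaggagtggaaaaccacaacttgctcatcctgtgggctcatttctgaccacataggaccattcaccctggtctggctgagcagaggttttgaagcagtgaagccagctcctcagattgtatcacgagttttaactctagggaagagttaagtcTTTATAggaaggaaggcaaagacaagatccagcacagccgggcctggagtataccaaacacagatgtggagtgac
Slc25a17: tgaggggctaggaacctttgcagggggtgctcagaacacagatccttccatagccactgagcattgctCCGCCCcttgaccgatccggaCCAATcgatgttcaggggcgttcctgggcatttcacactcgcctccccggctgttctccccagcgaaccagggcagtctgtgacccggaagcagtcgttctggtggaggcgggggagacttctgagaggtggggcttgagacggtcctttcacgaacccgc
Slc25a3: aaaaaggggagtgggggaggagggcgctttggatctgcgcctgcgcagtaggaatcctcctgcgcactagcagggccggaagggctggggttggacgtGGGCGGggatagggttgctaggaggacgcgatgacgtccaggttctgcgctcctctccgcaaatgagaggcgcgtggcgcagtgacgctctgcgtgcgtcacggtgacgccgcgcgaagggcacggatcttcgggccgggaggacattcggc

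The Slc25a18 window held 48.8% G or C and a TATA box match on the opposite strand, 75 to 70 bases before the start. The Slc25a17 window held 61.2% G or C, a GC box on the opposite strand and a CCAAT box, and the Slc25a3 window held 66.4% G or C and 1 GC box. RefSeq promoters were found for 32 of the 39 genes, 41 promoters in all. The GC box was in 30 of these 41 promoters (73.2%) and in 32.7% of all 32851 promoters of the table, and the CCAAT box in 18 (43.9%) and in 33.8%. TATAAA was in 2 member promoters (4.88%), those of Slc25a18 and Slc25a21, and in 12.4% of all. The receptor half-site was in 1 (2.44%) and in 4.08% of all, and the NRF1 site was in 0 of 41 and in 0.782% of all. The Slc25 promoters had a median of 59.0% G or C per gene, against 52.4% over all promoters, and a match describes these letters only.

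Of the carriers of amino acids and glutathione, 12 genes were on the array, and Slc25a18 was the 1 called probe among 10 compared probes for 7 genes. Slc25a12, the aspartate and glutamate exchanger of the malate-aspartate shuttle in brain, averaged 8.94 ± 0.074 on methanol and 8.86 ± 0.22 on control arrays, a log2 change of 0.08 (95% interval from -0.15 to 0.30, limma adjusted p = 0.74). Slc25a15, the ornithine carrier of the urea cycle, had 2 probes, with log2 changes of -0.27 and -0.14. The dimmer of them was the lowest uncalled change of the family, with 5.41 ± 0.18 on methanol and 5.68 ± 0.15 on control arrays, an interval from -0.60 to 0.07 and detection on 2 of 4 methanol arrays. Slc25a38, which brings in glycine for heme synthesis, changed by 0.10, 0.09 and 0.02 on its 3 probes. Slc25a39, a glutathione carrier, and Slc25a44, a carrier of branched-chain amino acids, changed by 0.05 and 0.08, and Slc25a45 by 0.04. None of these 9 probes passed the test, and their intervals reached from -0.60 to 0.39.

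The closest relative of Slc25a18 is Slc25a22, the other mitochondrial glutamate carrier. Its probe was not detected on any array, so that the change of the pair could not be compared. Slc25a13, the relative of Slc25a12 that is known from liver, was likewise not detected on any array, and neither was Slc25a48. Slc25a29, a carrier of basic amino acids, was detected on 1 methanol array, and Slc25a40, the relative of Slc25a39, on 2 methanol arrays. Their log2 intensities on those arrays were 5.91 for Slc25a29 and 5.52 and 5.67 for Slc25a40. Where an array did not detect a probe, it gives only an upper bound of signal, near the lowest detected log2 intensity, which averaged 5.46 on methanol and 5.42 on control arrays.

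**Figure D3:**
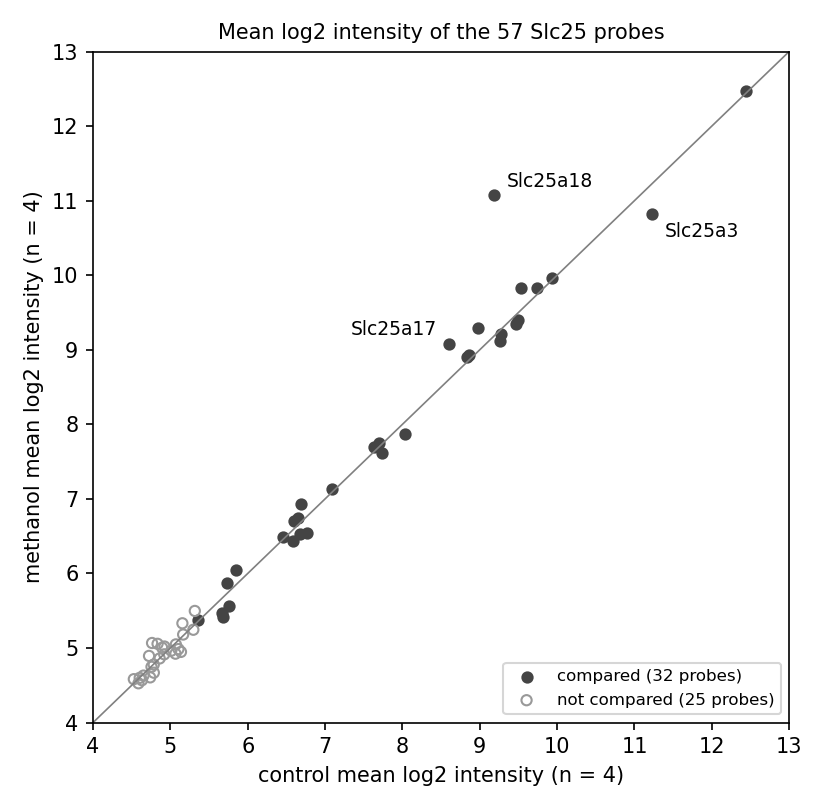
Mean log2 intensity of all 57 Slc25 probes, methanol on the vertical axis and control on the horizontal axis, with the line of equal values. Filled points are the 32 compared probes and open points the 25 that were not compared, and Slc25a18 lies farthest from the line.

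Of the carriers of nucleotides and related cofactors, 10 genes were on the array and 7 were compared, with 1 probe each. Slc25a17 (ILMN_1222474), on chromosome 15, encodes a carrier of the peroxisomal membrane that takes up coenzyme A and nucleotide cofactors. Its log2 intensities were 9.10, 8.89, 9.11 and 9.22 on methanol arrays and 8.65, 8.69, 8.62 and 8.45 on control arrays. The groups did not overlap, and the gap between them was 0.20 log2 units. The means were 9.08 ± 0.14 and 8.61 ± 0.11 for methanol and control (SD, n = 4 each), a log2 change of 0.47 (SE 0.092, 95% interval from 0.28 to 0.67), or 1.39-fold higher in the methanol group. The limma adjusted p was 0.0074, and with median scaling in place of quantile normalization the change was 0.48 with an adjusted p of 0.084.

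Slc25a33, a carrier of pyrimidine nucleotides, had log2 intensities of 9.25, 9.38, 9.42 and 9.14 on methanol arrays and 9.17, 9.07, 8.97 and 8.72 on control arrays. The groups overlapped by a single array on each side. The log2 change was 0.32 (SE 0.10, 95% interval from 0.10 to 0.54) with a limma adjusted p of 0.089, and without control replicate 1 it was 0.38 with an adjusted p of 0.040. Its relative Slc25a36 changed by 0.06 (interval from -0.15 to 0.26). Per array, the log2 ratio of Slc25a33 to Slc25a36 was 1.55 ± 0.15 on methanol and 1.28 ± 0.16 on control arrays, a difference of 0.26 that did not pass the exact permutation test (p = 0.0571, two-sided, adjusted p = 0.114 over the 2 measured pairs).

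Slc25a5, the ADP/ATP exchanger that supplies ADP for ATP synthesis, had log2 intensities of 12.51, 12.37, 12.60 and 12.41 on methanol arrays and 12.61, 12.46, 12.33 and 12.37 on control arrays. The groups lay within each other, with a log2 change of 0.03 and a 95% interval from -0.14 to 0.20. Slc25a42, which exchanges coenzyme A for adenine nucleotides, had 6.55, 6.78, 6.60 and 6.25 on methanol arrays and 6.60, 6.77, 6.68 and 7.01 on control arrays, a log2 change of -0.22 (interval from -0.51 to 0.08, limma adjusted p = 0.41). Slc25a25, a calcium-regulated ATP-magnesium and phosphate carrier, changed by -0.12, and Slc25a32, linked to the entry of folate and flavin cofactors, by -0.19. Slc25a24 and Slc25a41, relatives of Slc25a25, and Slc25a31, a testis ADP/ATP exchanger, were not detected on any array.

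Slc25a3 encodes the mitochondrial phosphate carrier, which brings in the phosphate for ATP synthesis, and its 2 probes moved in opposite directions. The brighter probe (ILMN_2751046) had log2 intensities of 10.89, 10.72, 10.72 and 10.97 on methanol arrays and 11.18, 11.12, 11.26 and 11.35 on control arrays, and every methanol array lay below every control array. Its means were 10.82 ± 0.12 for methanol and 11.23 ± 0.10 for control (SD, n = 4 each), a log2 change of -0.40 (SE 0.081, 95% interval from -0.58 to -0.23, limma adjusted p = 0.0099). With median scaling this change was -0.38 with an adjusted p of 0.199. The dimmer probe (ILMN_2960467) had 9.87, 9.91, 9.62 and 9.92 on methanol arrays and 9.76, 9.31, 9.63 and 9.43 on control arrays, and the groups overlapped. Its log2 change was 0.29 (SE 0.10, interval from 0.07 to 0.52) with an adjusted p of 0.121, and without control replicate 1 it was 0.37 with an adjusted p of 0.040.

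The difference between the probes was tested per array, as the log2 ratio of the brighter to the dimmer Slc25a3 probe, a test chosen after the values were seen. This ratio was 1.02, 0.82, 1.10 and 1.05 on methanol arrays and 1.42, 1.80, 1.62 and 1.92 on control arrays. The groups did not overlap, with means of 1.00 ± 0.12 for methanol and 1.69 ± 0.22 for control and a difference of -0.70 (SE 0.14). Over 3511 probe pairs of 2068 genes, limma gave an adjusted p of 0.021, and 1.82% of all pairs were called. The exact permutation test, used for the paralog ratios, gave p = 0.0286, two-sided, the smallest that 4 against 4 arrays allow. Its adjusted p over the 10 Slc25 pairs was 0.286. Without methanol replicate 2 the difference was -0.64 (adjusted p = 0.066), without control replicate 2 it was -0.66 (adjusted p = 0.079) and without control replicate 4 it was -0.62 (adjusted p = 0.072). Both probes are annotated to the same RefSeq transcript, and which transcript forms they capture was not tested. No direction can be given for Slc25a3 as a gene.

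**Figure D4:**
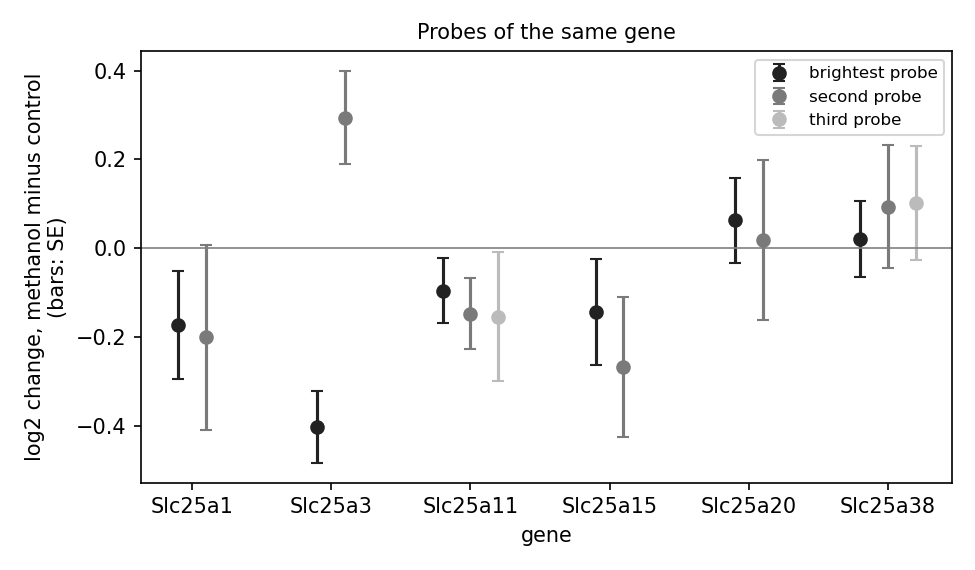
Log2 change, methanol minus control, of each compared probe of the 6 Slc25 genes with more than 1, with bars for the SE, from the brightest probe on the left to the dimmest on the right within a gene. The Slc25a3 probes lie at -0.40 and 0.29, on opposite sides of 0, and the probes of the other 5 genes lie on the same side.

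Of the 10 probe pairs in these 6 genes, 1 pair was called by limma, that of Slc25a3. Among carriers of dicarboxylates and tricarboxylates, none of 6 compared probes passed the test. Slc25a11, the oxoglutarate and malate exchanger of the malate-aspartate shuttle, was lower on each of 3 probes by values that did not pass, with log2 changes of -0.15, -0.15 and -0.09. Its brightest probe had 9.38, 9.35, 9.46 and 9.39 on methanol arrays and 9.54, 9.40, 9.53 and 9.48 on control arrays (interval from -0.25 to 0.06), and the groups overlapped. Slc25a1, the citrate carrier that feeds lipid synthesis, changed by -0.17 and -0.20 on its 2 probes, and Slc25a10, the dicarboxylate carrier, by 0.19. Slc25a21, the carrier of longer keto acids, was not detected on any array.

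Slc25a26, which brings S-adenosylmethionine into mitochondria, had log2 intensities of 6.83, 7.12, 6.93 and 6.82 on methanol arrays and 6.82, 6.77, 6.40 and 6.79 on control arrays. The groups did not overlap, by a small margin, and the log2 change of 0.23 did not pass the test (SE 0.13, interval from -0.04 to 0.51, limma adjusted p = 0.32). Slc25a16, linked to coenzyme A, changed by -0.06. The brain uncoupling-like carriers Slc25a14 and Slc25a27 changed by -0.12 and 0.14. Their per-array log2 ratio, Slc25a27 over Slc25a14, was -3.48 ± 0.25 on methanol and -3.74 ± 0.15 on control arrays, a difference of 0.26 (exact permutation p = 0.143, two-sided). The Slc25a27 probe was dim, with means of 5.87 on methanol and 5.73 on control arrays. It was detected on 3 of 4 methanol arrays, so that the methanol mean of this ratio is an upper bound. Slc25a20, the carnitine and acylcarnitine exchanger of fatty acid oxidation, changed by 0.06 and 0.02 on its 2 compared probes, and Slc25a28, a mitochondrial iron importer, by 0.08.

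The remaining members on the array gave no comparison. Slc25a30, Slc25a46 and Slc25a53 were not detected on any array, Slc25a35 and Slc25a47 were detected on 1 control array each, and Slc25a34 on 1 methanol and 2 control arrays. In all, 10 of the 39 genes had no detecting array on any probe. The RefSeq table holds 8 further Slc25 symbols that the array annotation does not name and that were not analysed here, among them Slc25a4, the main ADP/ATP exchanger of muscle and brain. Of the 29 uncalled probes, 21 had a 95% interval within 0.5 log2 units of 0 on either side, so that larger changes were outside the interval for those, and 13 changed by less than 0.1.

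Genes that work beside the carriers were counted from the same fit, with the brightest probe standing for each gene, and 3.12% of all compared probes were called higher and 2.49% lower. A single call in a list of 8 to 12 genes is given as a value of that gene, not as a result about the list. Of 8 compared genes of the import machinery that delivers carriers to the inner membrane, 1 was higher, Timm8a1, a small chaperone of the intermembrane space, with 9.59 ± 0.078 on methanol and 9.18 ± 0.21 on control arrays (log2 change 0.41, SE 0.10, limma adjusted p = 0.027), and the median change was 0.05. Of 12 other channels and transporters of the mitochondrial membranes, 1 was lower, the outer membrane pore Vdac3, with 9.16 ± 0.13 on methanol and 9.61 ± 0.099 on control arrays (log2 change -0.45, SE 0.088, adjusted p = 0.0078), and the median change was -0.09. Vdac2 changed by -0.28 (adjusted p = 0.055). Of 10 enzymes on either side of the glutamate and aspartate carriers, 1 was higher, Glul, with 9.21 ± 0.23 on methanol and 8.58 ± 0.12 on control arrays (log2 change 0.63, SE 0.11, adjusted p = 0.0041), and the median change was 0.09. The transaminases Got1 and Got2 changed by 0.10 and 0.08 and glutamate dehydrogenase, Glud1, by 0.28 (adjusted p = 0.26), none past the test. Nor did the malate dehydrogenases Mdh1 and Mdh2 pass, with -0.09 and -0.01. Dimmer probes changed by -0.44 (adjusted p = 0.071) and 0.01 for Mdh1 and by 0.03 for Glud1. None of 5 enzymes beside the citrate and carnitine carriers and none of 3 carrier relatives under other symbols passed on the brightest probe, and for Mtch1 a dimmer probe was lower (-0.47, adjusted p = 0.035) while the brighter one changed by -0.06.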

How the data were processed

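Total RNA of brain was hybridised to Illumina MouseRef-8 BeadChips, with 8 arrays in all. The authors scanned and normalized the arrays, by cubic spline per the methods. They deposited un-normalized intensity values and a table, titled non-normalized, whose 8 intensity columns held the same sorted values and so were already normalized. The second table also held the deposited detection p-value of each probe and array. The un-normalized intensities were background corrected (normexp with an offset of 16, fitted through the detection p-values), quantile normalized and put on the log2 scale with neqc of limma 3.58.1 in R 4.3.3. Normexp sets the size of the change of dim probes. Groups were compared with lmFit and eBayes with an intensity trend, two-sided, and the Benjamini-Hochberg adjustment ran over all 11938 compared probes. A probe was called at an adjusted p under 0.05. Fits were tested on simulated data. Genes were named by the platform annotation, which gave 1 symbol for 23978 probes and none for 1719, and all 39 Slc25 symbols were unchanged through Entrez IDs in RefSeq. No probe's level was set against that of another gene except as a per-array ratio whose change between groups was tested. Named genes were every called Slc25 probe, the 3 highest and 3 lowest changes, genes with several compared probes, paralog pairs, and the other members by role. Of 8 paralog pairs, 2 had both members measured. The members and lists were chosen with earlier results of these data known. Replicates are separate arrays of a group, and p-values measure the spread between these arrays, whose number limits the precision. Alternatives were other background corrections, normalizations, filters, variance models, the replicate number as a block and leaving out each array.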

Additional observations from a re-analysis of the deposited data

Results flagged for a closer look

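Among the 64 groups of 4 arrays formed by the 32 compared Slc25 probes, 5 held 1 array that lay far from the other 3, by the share of the group's range that its gap to the nearest array takes up (Dixon's test for 4 values at the 95% level), and chance gives about 1 in 20 groups. For Slc25a1 (ILMN_2619846), methanol replicate 3 was lowest at 4.80, with the others from 5.58 to 5.74 (0.833 of the range). For Slc25a11 (ILMN_2600053), methanol replicate 4 was lowest at 6.09, with the others from 6.51 to 6.57 (0.863). For the dimmer Slc25a3 probe (ILMN_2960467), methanol replicate 3 was lowest at 9.62, with the others from 9.87 to 9.92 (0.835). For Slc25a38 (ILMN_2946901), control replicate 3 was lowest at 6.28, with the others from 6.68 to 6.72 (0.905). For Slc25a26, control replicate 3 was lowest at 6.40, with the others from 6.77 to 6.82 (0.88). None of these 5 probes passed the test.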

How the results depend on the processing

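The Slc25 counts of 2 higher and 1 lower held under 9 of 11 alternative settings, including the deposited normalized intensities, every filter and a fold limit of 1.3. With median scaling 1 was higher and 0 were lower, since Slc25a17 and Slc25a3 no longer passed, and 161 and 168 of all probes were called higher and lower, against 372 and 297. With the replicate number as a block 3 were higher, with Slc25a33 added (0.32, adjusted p = 0.045), 1 was lower, and 477 and 483 of all probes were called. The labels do not say what the replicate number stands for. Same-numbered arrays deviated together with correlations of 0.185, -0.109, -0.013 and 0.25. The best matching control replicates of methanol replicates 1, 2, 3 and 4 were 1, 1, 2 and 4. Whether the arrays were paired cannot be told from these values. Leaving out 1 array gave 2 to 4 higher (4 without control replicate 1, with Slc25a33 and the dimmer Slc25a3 probe added) and 1 lower each time. Slc25a18 stayed between 1.65 and 1.99 in all of these. The Slc25a3 probe difference ran from -0.79 to -0.62 without 1 array. The Slc25a33 to Slc25a36 difference ran from 0.19 to 0.31 and that of Slc25a27 to Slc25a14 from 0.19 to 0.38. With 3 against 4 arrays the smallest exact p is 0.0571.

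The sign of 8 uncalled probes turned when 1 array was left out, with ranges of -0.0035 to 0.14 and -0.034 to 0.066 for Slc25a38 (ILMN_2946901 and ILMN_2946905), -0.016 to 0.11 for Slc25a39, -0.00027 to 0.071 for Slc25a45, -0.073 to 0.099 for Slc25a20 (ILMN_3061070), -0.29 to 0.021 for Slc25a1 (ILMN_2619846), -0.010 to 0.087 for Slc25a5 and -0.0084 to 0.095 for Slc25a36. No other alternative turned a sign. Dim probes near background limit what can be seen for members such as Slc25a32. The Slc25a20 probe ILMN_3061070 was also dim, but the brighter one was detected on all 8 arrays.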

Other observations

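Genes beside Slc25a18 on chromosome 6 were looked at after its value was seen. Of the 6 protein-coding genes on each side in RefSeq, 8 were compared and 2 passed the test of the fit over all probes, both higher, where 3.12% of all compared probes were called higher. Bid, a mediator of cell death at mitochondria, had a log2 change of 0.60 (SE 0.14, limma adjusted p = 0.022), and Tuba8, an alpha tubulin, of 0.90 (SE 0.24, adjusted p = 0.041). The neighbour Atp6v1e1, a subunit of the proton pump of acidic vesicles, changed by 0.00 (adjusted p = 0.98). Of the neighbours of Slc25a17 8 of 12 were compared and 0 passed, and of those of Slc25a3 5 of 12 were compared and 0 passed.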
